A study of Mus musculus with 1989 samples.

Results

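The translation initiation and elongation factors described here were the 63 genes, of 8846 in the RNA table, whose symbols begin with Eif or Eef. The rule reads symbols, not values. They were followed through the stages of αβ-T cell development in 1993 thymocytes of a single scRNA-seq library. The library was made by a droplet method that counts the 3′ ends of transcripts, from mouse thymus, male and aged 7 weeks by the label and of the C57BL/6 strain by the study's methods, with no treatment and no sorting named. The labels tie no cell to an animal, and the library counted as 1 sample. No test between stages, p-value or standard error was therefore computed, and intervals cover counting error only.

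Protein synthesis begins when eIF2 delivers the initiator tRNA, eIF3 holds the small ribosomal subunit, and the eIF4 factors bind the capped mRNA and unwind its leader. Start codon choice is policed by eIF1, eIF1A and eIF5, and eIF5B joins the large subunit. During elongation eEF1A brings aminoacyl-tRNA, the eEF1B subunits recharge eEF1A, eEF2 moves the ribosome along, and eIF5A helps it past difficult peptide bonds. In the thymus, large cycling blasts at the transition from DN to DP cells give rise to small resting DP cells, of which those that pass selection mature into CD4 or CD8 SP cells.

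Stages were rebuilt by clustering the cells without any Eif or Eef gene and by marker genes. The 17 clusters gave 79 DN-like cells, 314 ISP-like cells, 338 DPbla-like cells, 495 DPre-like cells, 325 DPsel-like cells, 149 CD8sp-like cells and a CD4sp-like cluster with 7.78% of all cells. APCs (36 cells), NCLs (31 cells) and an unnamed cluster of 71 cells led by Tnfrsf9, Tnfrsf4 and Ikzf2 made up the rest. Il2ra, Rag1 and Itm2a were among the markers that named the classes, so their shares are no check of the names. After thinning Il2ra was found in 62.0% of DN-like cells and Itm2a in 45.6% and 84.4% of the cells of the 2 DPsel-like clusters. Rag1 was found in 66.9% to 81.0% of the cells of the DPre-like clusters. It was also found in 55.6% of the DPbla-like cluster 12 and in 46.8% of DN-like cells. The APC markers summed to 0.644 to 1.03 steps per cell in the 7 thymocyte classes and to 36.8 in the APCs. The NCL markers ran from 0.160 in the DPbla-like to 1.705 in the CD8sp-like class and stood at 15.03 in the NCLs. Nkg7, an NCL marker, was among the leading genes of both the CD8sp-like and the NCL cluster. The name ISP-like was the least secure. Its clusters 6, 9 and 14 scored highest for the ISP markers by small margins (0.113 against 0.0281 for the next class, 0.0354 against 0.0214 and 0.308 against 0.165), and cluster 6 was led by the replication genes Hells, Mcm5 and Ung. Values are therefore also given by cluster.

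Depth differed between stages. The median number of steps, explained below as a stand-in for counts, was 7366 per ISP-like cell and 5216 per DPbla-like cell, but 1999 per DPre-like and 1973 per DPsel-like cell. Cells showed 39.5 of the 63 genes in the ISP-like class and 23.2 in the DPre-like class. The deposited values are log2 levels after quantile normalization, so each value was replaced by its place in the ascending order of the different values of its cell, called its step, which stands in for a count, and every cell was thinned at random to 1300 steps. At that equal total of steps the numbers were 19.2 ± 3.10 genes per cell (SD, n = 314 cells) in the ISP-like class and 17.4 ± 2.98 (SD, n = 495 cells) in the DPre-like class. All levels below are mean steps per cell of these 1300 unless another scale is named.

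All 63 genes together took 38.9 ± 8.34 steps for DN-like cells (SD over 79 cells), 39.3 ± 7.25 for ISP-like, 28.6 ± 6.61 for DPbla-like, 35.6 ± 7.06 for DPre-like, 36.1 ± 7.77 for DPsel-like, 40.2 ± 7.34 for CD4sp-like and 39.9 ± 7.21 for CD8sp-like cells. The DPbla-like class was the lowest. Its level was 0.803 times that of the DPre-like class (95% interval 0.784 to 0.824). The DPbla-like clusters 2, 10 and 12 stood at 29.9, 25.9 and 29.0 steps and the DPre-like clusters 0, 1 and 8 at 37.6, 33.6 and 35.4, without overlap. ISP-like cells, which cycle too, stood 1.10 times above DPre-like cells (1.08 to 1.13), but here the clusters overlapped, with 38.1, 42.5 and 37.0 steps in clusters 6, 9 and 14. From DPsel-like to CD4sp-like cells the ratio was 1.11 (1.08 to 1.15). Without Eef1a1 the levels of these 2 classes were 27.3 and 29.5 steps. The intervals of the remaining 3 comparisons held 1: DPsel-like over DPre-like at 1.02 (0.991 to 1.04), CD8sp-like over CD4sp-like at 0.994 (0.959 to 1.03) and DN-like over ISP-like at 0.990 (0.952 to 1.03). Thinning matched the total only, and levels still differed with depth inside classes: the deeper and the shallower DPbla-like cells held 30.5 and 26.7 steps, and those of the DPre-like class 34.8 and 36.4. Mki67 was found in 52.4% of the DPbla-like and 25.8% of the ISP-like class, and whether the phase of the cell cycle had a part in the low level was not tested.

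**Figure D1:**
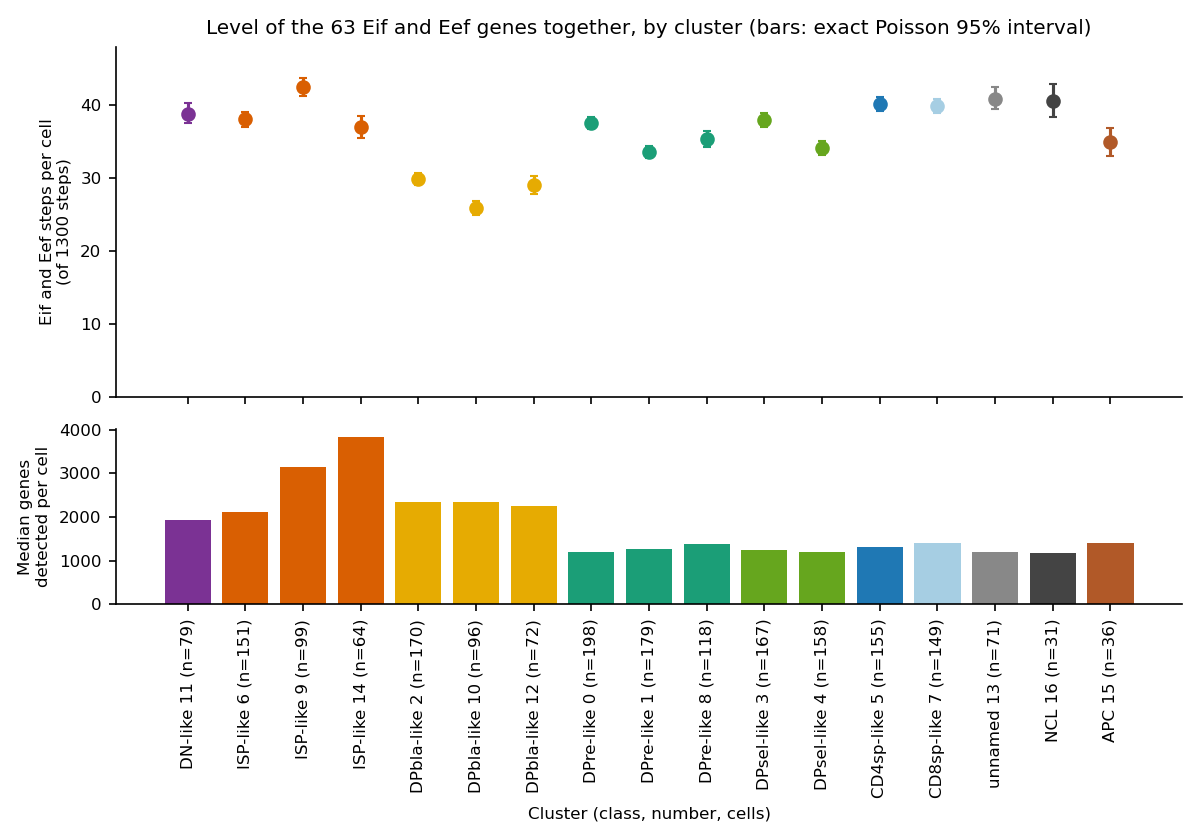
The upper panel plots the summed level of the 63 Eif and Eef genes in each cluster as mean steps per cell of 1300, with exact Poisson 95% intervals, and the lower panel the median number of detected genes per cell. The 3 DPbla-like clusters lie at 25.9 to 29.9 steps, below every other cluster, while the deepest cells are those of the ISP-like clusters 9 and 14, and the ISP-like cluster 6 is shallower than the 3 DPbla-like clusters.

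Single factors were compared where a gene was found in at least 10% of thinned cells averaged over the 7 classes. Of the 63 genes 44 passed, and of all 8846 genes 2486 passed. For 2 of the 44 the average fell under 10% without the class where they were highest: Eif4e3 (9.88% without DPre-like cells) and Eif3b (9.97% without ISP-like cells), so their ratios against that class describe genes let in by it. Being called meant a ratio of at least 1.5 in either direction. In ISP-like over DPre-like cells 47.3% of all genes tested were called, 20.8% higher and 26.5% lower, and 20 of the 44 factors were called, 16 higher and 4 lower. The share called, 45.5%, was near the background, with 16 of 20 calls on the high side. In cells with 1000 to 2000 detected genes (60 ISP-like and 467 DPre-like cells) 13 factors were called, 10 higher and 3 lower, against 47.4% of all genes. The median ratio was 1.17 over the factors and 0.954 over all genes tested. In DPbla-like over DPre-like cells 37.2% of all genes were called, 14.4% higher and 22.8% lower, and the factors gave 4 higher and 13 lower, with medians of 0.846 and 0.901. In DN-like over ISP-like cells the background was 46.7%, 23.4% higher and 23.3% lower, and the factors gave 4 higher and 13 lower, with medians of 0.832 and 0.994. Around selection and later the share called was below the background. For DPsel-like over DPre-like cells the background was 24.8% (12.3% higher, 12.5% lower), and 4 factors were higher and 3 lower, 15.9% of the 44. For CD4sp-like over DPsel-like cells it was 22.7% (8.77% and 13.9%), and 3 factors were higher and 3 lower, 13.6%. For CD8sp-like over CD4sp-like cells it was 18.8% (9.94% and 8.89%), and 2 factors were higher and 2 lower, 9.09%.

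**Figure D2:**
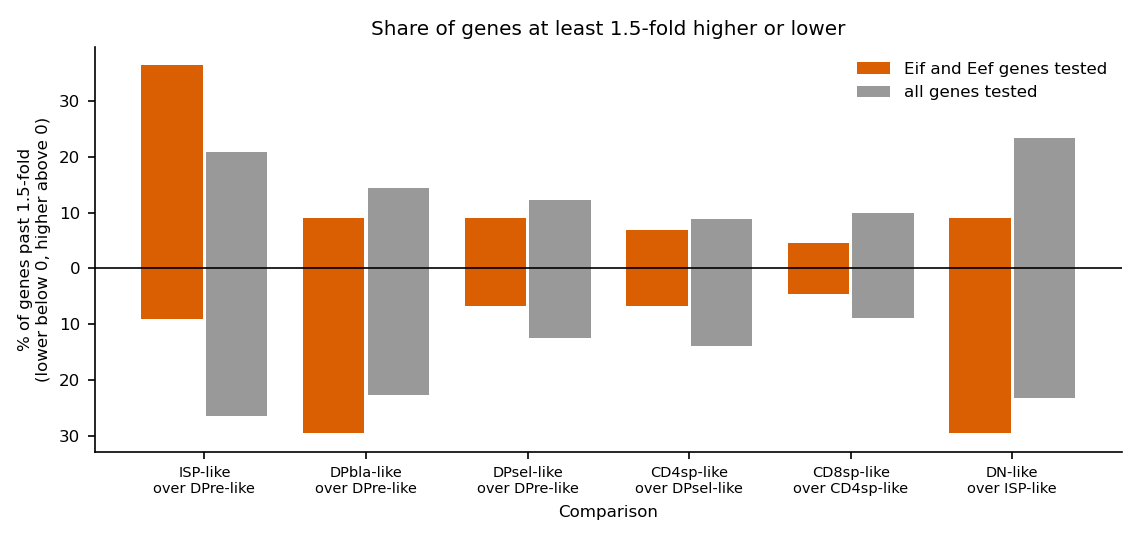
Bars give the percent of genes at least 1.5-fold higher (above 0) or lower (below 0) in each of 6 comparisons, for the 44 factors tested and for all genes tested. In ISP-like over DPre-like cells 16 factors are higher and 4 lower, while among all genes lower calls outnumber higher calls.

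By class, 15 of the 44 factors had their highest level in ISP-like cells (34.1%, against 20.0% of all genes tested) and 18 had their lowest in DPbla-like cells (40.9%, against 17.6%). None had either extreme in DPsel-like cells, which held the highest level of 12.3% and the lowest of 6.15% of all genes tested. The factor with the most even level was Eif6, which keeps free large subunits from joining too early: it ran from 0.586 steps in DPbla-like to 0.734 in DN-like cells, a range of 1.25-fold. The least even were Eif4e3, at 4.56-fold, and Eif4a2, at 4.36-fold. The range of Eif4e3 is a description only, for the reason given with the filter.

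**Figure D3:**
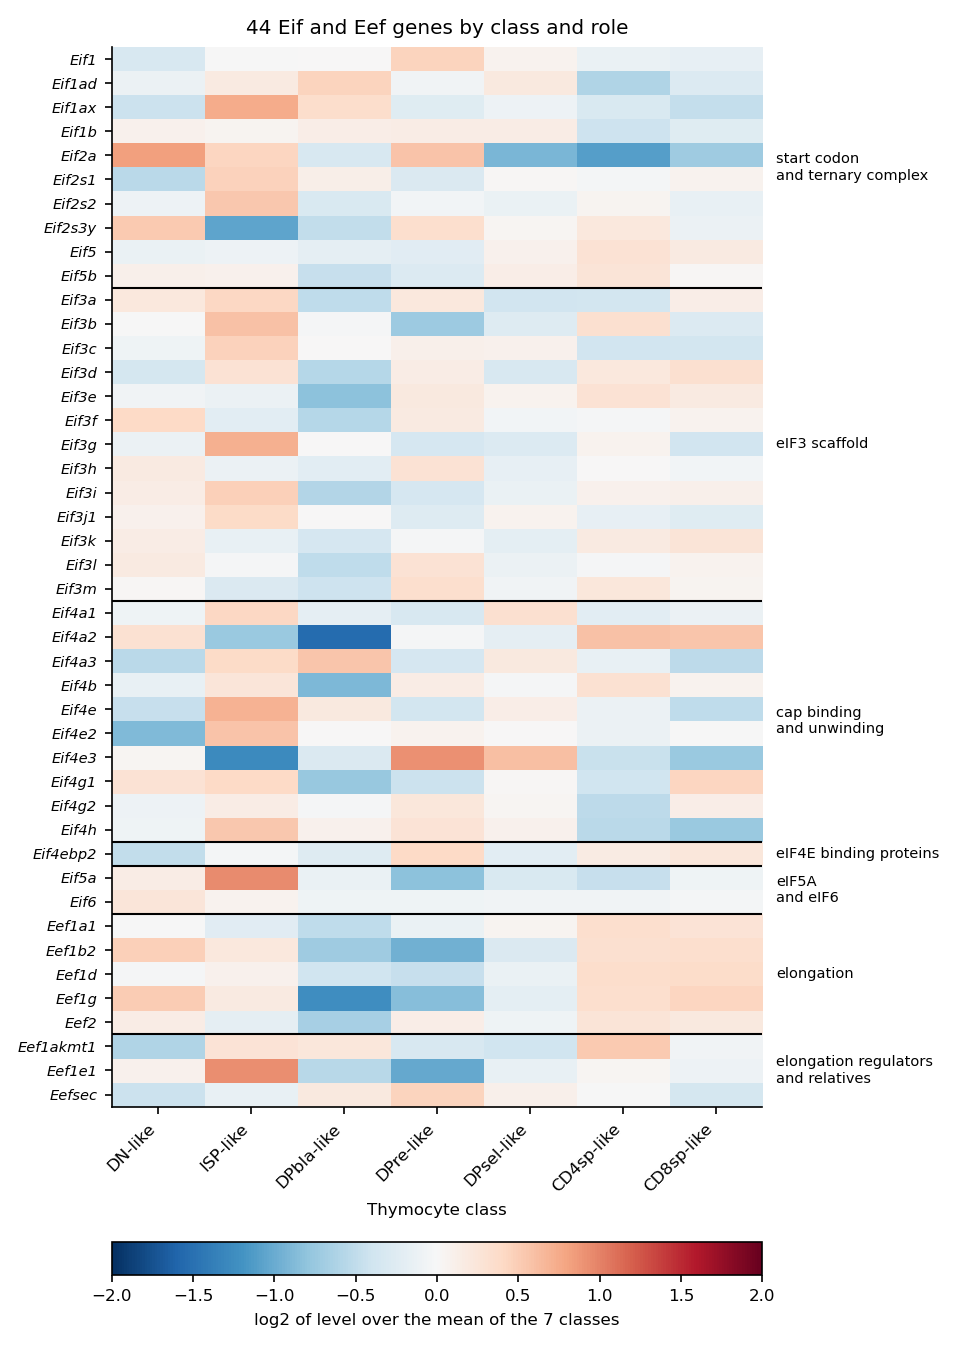
Colours give the log2 of the level of each of 44 factors (rows, grouped by role) in each of 7 thymocyte classes (columns) over its mean across the classes, in cells thinned to 1300 steps. Red dominates the ISP-like column, where 15 factors have their highest level, and blue the DPbla-like column, where 18 have their lowest.

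Among the start codon and ternary complex factors, 10 of 13 were tested, and 3 were called higher and 1 lower in ISP-like over DPre-like cells, 40% against the background of 47.3%. Eif1, which guards the start codon, was the most widely found, and its level was highest in the small DP cells: 2.65 steps for DN-like, 3.30 for ISP-like, 3.32 for DPbla-like, 4.49 for DPre-like, 3.48 for DPsel-like, 3.01 for CD4sp-like and 2.95 for CD8sp-like cells. The interval of the DPre-like level, 4.30 to 4.68, overlapped that of no other class, and on the deposited log2 scale the DPre-like mean was the highest too, at 3.70 ± 0.76 (SD, n = 495 cells). Eif1b, its close copy, also had its highest level in DPre-like cells, at 0.438 steps, but from DN-like to DPsel-like cells its levels lay between 0.411 and 0.438 with overlapping intervals, and its lowest was 0.297 steps in CD4sp-like cells. By cluster Eif1b was highest in the DPbla-like cluster 12, at 0.722 steps, against 0.329 and 0.396 in clusters 2 and 10 and 0.402 to 0.542 in the DPre-like clusters. Eif1ax, which codes for eIF1A and helps scanning, stood at 0.481 steps in the ISP-like class, 0.370 in the DPbla-like and 0.244 in the DPre-like class, ratios of 1.97 (1.54 to 2.52) and 1.51 (1.17 to 1.96) over the DPre-like class. Its relative Eif1a was found in too few cells to be tested, at 0.0503 to 0.127 steps. Eif2s1 and Eif2s2, the alpha and beta subunits of eIF2, were 1.69 and 1.52 times higher in ISP-like than in DPre-like cells. By cluster both were highest in the ISP-like cluster 9, at 0.313 and 1.17 steps. Eif2s1 was at 0.205 and 0.156 in clusters 6 and 14, against up to 0.1525 in the DPre-like clusters. Eif2s2 was at 0.623 and 0.8125 there, against up to 0.610 in the DPre-like clusters.

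Eif2a, a separate initiator tRNA carrier that is not a subunit of eIF2, was low from selection onwards. It had 0.367 steps for DN-like, 0.280 for ISP-like, 0.166 for DPbla-like, 0.307 for DPre-like, 0.111 for DPsel-like, 0.0968 for CD4sp-like and 0.128 for CD8sp-like cells. The ratio of DPsel-like over DPre-like cells was 0.361 (0.244 to 0.522), the lowest of the 44 factors in that comparison. Its transcript was found in 27.3% of thinned DPre-like cells (39.2% before thinning) and in 10.8% of DPsel-like cells (20.0%). The clusters were not alike within classes: DPsel-like cluster 3 was at 0.0539 steps and cluster 4 at 0.171, DPbla-like cluster 2 was at 0.0941 and clusters 10 and 12 at 0.198 and 0.292, and the unnamed cluster stood at 0.282. The 3 DPre-like clusters lay between 0.297 and 0.318, above both DPsel-like clusters.

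The gamma subunit of eIF2 is coded on both sex chromosomes. Eif2s3y, the Y-linked copy, stood at 0.304 steps for DN-like, 0.102 for ISP-like, 0.151 for DPbla-like, 0.269 for DPre-like, 0.219 for DPsel-like, 0.245 for CD4sp-like and 0.195 for CD8sp-like cells. Eif2s3x, the X-linked copy, was at 0.131 steps in ISP-like and 0.123 in DPre-like cells, and was found in 9.34% of thinned cells on average, just under the limit for testing. The ratio of Eif2s3x over Eif2s3y was 1.28 (0.787 to 2.10) in ISP-like cells and 0.366 to 0.459 in the other 6 classes. Reads of such close copies can be hard to assign: the authors ran Cell Ranger with its default settings, which leave out reads that fit more than one gene.

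The eIF2B exchange factor, which reloads eIF2 with GTP, was too sparse to test: Eif2b1 to Eif2b5 were each found in 2.84% to 7.26% of thinned cells on average. The eIF2 kinases, which shut down initiation under stress, were sparse too. Eif2ak1, the kinase that senses heme, was found in 2.53% to 6.67% of the cells of each class. Eif2ak3, the kinase of the endoplasmic reticulum, was found in 0 of 79 thinned DN-like cells and in 0.955% to 3.03% of the other classes. For a count of 0 the limit on the share of thinned DN-like cells with the transcript, not of cells that express it, is 3.80%, and before thinning 3.80% of DN-like cells held it. Eif2ak2, the interferon-induced kinase that senses double-stranded RNA, was found in 9.68% of thinned CD4sp-like cells (5.52% to 15.5%), in 1.48% to 3.84% of the other thymocyte classes and in 8.33% of the APCs. Before thinning the order was another, with 12.3% of CD4sp-like, 16.2% of ISP-like and 15.2% of DN-like cells. The CD4sp-like cluster was also led by the interferon-induced genes Ifit1 and Ifi27l2a, whose part in the Eif2ak2 value was not tested. Both it and the CD8sp-like cluster came from the same library at similar depth, with medians of 2184 and 2398 steps before thinning.

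The eIF3 scaffold gave 13 tested subunits of 14. In DPbla-like over DPre-like cells 6 were called lower and 1 higher, against 22.8% and 14.4% of all genes tested, with a median ratio of 0.708, against 0.901. The lower subunits were Eif3e at 0.492 (0.418 to 0.577), Eif3l at 0.575, Eif3m at 0.594, Eif3f at 0.595 (0.521 to 0.678), Eif3a at 0.604 (with deposited log2 means that differed by 0.0017, higher in DPbla-like cells) and Eif3d at 0.606, and the higher subunit was Eif3b at 1.64 (1.00 to 2.68). Eif3e, in full, had 1.04 steps for DN-like, 1.01 for ISP-like, 0.612 for DPbla-like, 1.24 for DPre-like, 1.14 for DPsel-like, 1.32 for CD4sp-like and 1.24 for CD8sp-like cells. Only the DPbla-like interval, 0.532 to 0.702, lay apart from all the others. Within the class the G2 and M phase clusters 10 and 12, led by Ube2c and Cenpf, had 0.448 and 0.486 steps of Eif3e, and cluster 2, led by the histone gene Hist1h2ap and Rrm2, had 0.759. The DPre-like cluster 8, led by Ccnb2 among others, had 0.966, between them and the 1.24 and 1.41 of the remaining DPre-like clusters.

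The subunits of eIF3 did not move as a block in ISP-like cells. There Eif3b, which passed the filter through this class, was 2.50 (1.60 to 3.97), Eif3g 2.06 (1.60 to 2.65), Eif3i 1.76 (1.43 to 2.17) and Eif3j1 1.55 times the DPre-like level, and Eif3m 0.653 times (0.534 to 0.795), while the deposited log2 mean of Eif3m was 0.11 higher in ISP-like cells. By cluster Eif3j1 stood at 0.252, 0.444 and 0.234 steps in the ISP-like clusters 6, 9 and 14, against 0.173 to 0.246 in the DPre-like clusters. Eif3b, Eif3g and Eif3i form a peripheral module of the complex, a grouping applied here after the values were seen. The subunits of its octameric core ran from 0.653 to 1.29. Eif3e, Eif3f, Eif3h, Eif3k, Eif3l and Eif3m lay below 1 and Eif3a (1.15) and Eif3c (1.29) above. The intervals of Eif3k, Eif3l, Eif3a and Eif3c held 1. On the deposited log2 scale, not thinned, the means of all subunits below 1 were higher in ISP-like cells, by 0.09 to 0.41. Eif3h, the most widely found subunit, ran from 1.19 steps in DPbla-like to 1.69 in DPre-like cells, and Eif3k from 0.837 in DPbla-like to 1.27 in CD8sp-like cells. Eif3f was highest in DN-like cells, at 1.86 steps, 1.53 times (1.26 to 1.86) the ISP-like level. In CD4sp-like over DPsel-like cells 0 of the 13 were called, against 22.7% of all genes tested, and 11 had ratios above 1, against 40.4%.

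In the cap-binding and unwinding group 10 of 11 genes were tested, and 4 were called higher and 2 lower in ISP-like over DPre-like cells, against 47.3% of all genes tested in either direction. Of the 2 lower calls Eif4e3 was one. Eif4a1, the main RNA helicase of initiation, had 1.18 steps for DN-like, 1.68 for ISP-like, 1.11 for DPbla-like, 1.01 for DPre-like, 1.56 for DPsel-like, 1.08 for CD4sp-like and 1.16 for CD8sp-like cells. It was high in ISP-like cells (1.67 times the DPre-like level, 1.47 to 1.89) and again at selection (1.54 times, 1.36 to 1.75). Eif4a2, a second helicase gene, went the other way, with 0.329, 0.159, 0.0917, 0.261, 0.234, 0.400 and 0.389 steps in the same order of classes. It was at 0.611 times the DPre-like level in ISP-like cells (0.432 to 0.853), although its deposited log2 mean, not thinned, differed by 0.02 the other way, at 0.352 times in DPbla-like cells (0.230 to 0.524), and 1.71 times higher in CD4sp-like than in DPsel-like cells (1.20 to 2.42). The ratio of Eif4a1 over Eif4a2 was 10.5 for ISP-like and 12.1 for DPbla-like cells, and 2.71 and 2.98 in CD4sp-like and CD8sp-like cells. Eif4a3, which serves the exon junction complex rather than initiation, was highest in DPbla-like cells, at 0.325 steps and 1.85 times the DPre-like level (1.39 to 2.48). The DPbla-like clusters differed, with 0.418 steps in cluster 2, 0.271 in cluster 10 and 0.181 in cluster 12, the last within the 0.134 to 0.220 of the DPre-like clusters.

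**Figure D4:**
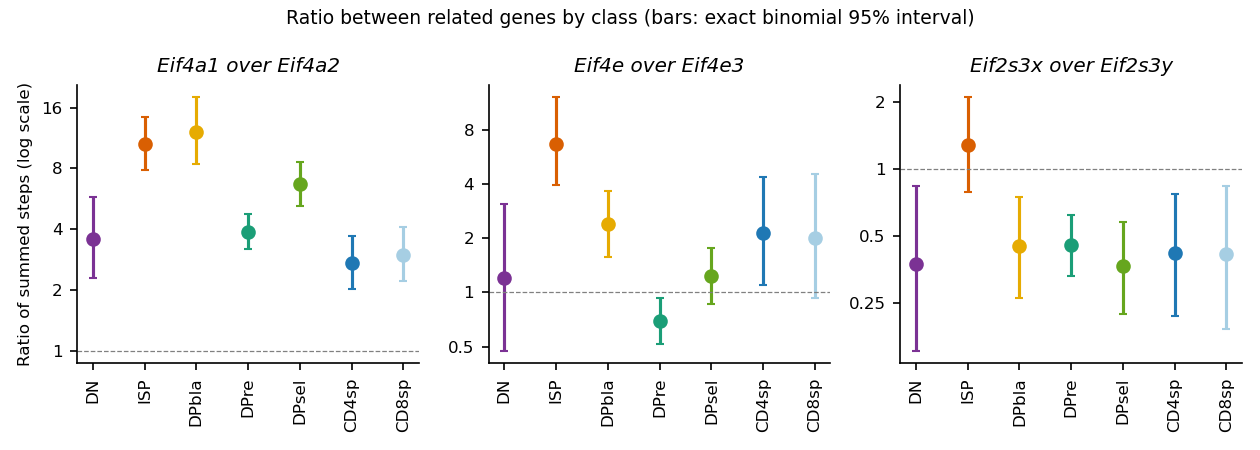
Points give the ratio of the summed steps of 2 related genes in each thymocyte class, on a log axis, with exact binomial 95% intervals. Eif4a1 exceeds Eif4a2 by 10.5-fold and 12.1-fold in ISP-like and DPbla-like cells and by 2.71-fold to 6.66-fold elsewhere, and the ratio of Eif4e over Eif4e3 is 0.696 in DPre-like cells, the class through which Eif4e3 passed the filter.

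Of the cap-binding proteins, Eif4e, the main one, stood at 0.341 steps in ISP-like and 0.162 in DPre-like cells, a ratio of 2.11 (1.56 to 2.85), while Eif4e3, a divergent member of the same family, stood at 0.0510 and 0.232, a ratio of 0.219 (0.121 to 0.372), given as a description since Eif4e3 passed the filter through the DPre-like class. Eif4e3 was found in 4.78% of thinned ISP-like and 20.2% of DPre-like cells, but in 27.7% and 31.7% before thinning. On the deposited log2 scale its mean was 0.09 ± 0.24 in ISP-like cells (SD, n = 314 cells) and 0.33 ± 0.55 in DPre-like cells (SD, n = 495 cells). The ratio of Eif4e over Eif4e3 was 6.69 for ISP-like, 2.38 for DPbla-like, 0.696 (0.516 to 0.933) for DPre-like and 1.23 (0.865 to 1.75) for DPsel-like cells, which is a description for the same reason. Eif4e2, a further member that binds the cap weakly, was lowest in DN-like cells, at 0.114 steps against 0.309 in ISP-like cells. The scaffold Eif4g1 was 1.79 times higher in ISP-like than in DPre-like cells (1.21 to 2.63), and Eif4g2, which lacks the site for eIF4E, stayed between 0.696 and 0.867 for DN-like to DPsel-like cells, then stood at 0.516 for CD4sp-like and 0.812 for CD8sp-like cells, a ratio of 1.57 (1.18 to 2.11). Eif4b, a helper of the helicase, was at 0.480 times the DPre-like level in DPbla-like cells (0.354 to 0.645), and Eif4h, a shorter relative, had its lowest levels in CD4sp-like and CD8sp-like cells, 0.232 and 0.201 steps.

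The proteins that hold eIF4E away from the cap complex were mostly sparse. Eif4ebp2 was the one tested, and it was highest in DPre-like cells, at 0.259 steps, with 0.163 in the DPbla-like and 0.169 in the DPsel-like class. Eif4ebp1 was found in 1.27% to 4.70% and Eif4enif1 in 3.08% to 7.96% of the thinned cells of each class.

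Eif5a was high in ISP-like cells. It had 1.67 steps for DN-like, 2.92 for ISP-like, 1.38 for DPbla-like, 0.855 for DPre-like, 1.23 for DPsel-like, 1.10 for CD4sp-like and 1.43 for CD8sp-like cells. The ratio over DPre-like cells was 3.42 (3.05 to 3.85) in the ISP-like class and 1.61 (1.41 to 1.84) in the DPbla-like class. On the deposited scale its log2 value was 3.06 ± 0.86 in ISP-like cells (SD, n = 314 cells) and 1.14 ± 0.96 in DPre-like cells (SD, n = 495 cells), and it was above 0 in 100% and 71.7% of these cells. Cluster 9 stood at 3.90 steps, cluster 14 at 3.34 and cluster 6 at 2.11, all above the 0.682 to 1.31 of the DPre-like clusters. Myc was found in 23.2%, 21.9% and 8.61% of the thinned cells of clusters 9, 14 and 6, in 1.70% to 3.03% of the DPre-like clusters and in 16.5% of DN-like cells. The part of Myc in the level of Eif5a was not tested. Eif5a2, its rarely used copy, was found in no thinned DN-like or CD4sp-like cell (limits of 3.80% and 1.94% on the share of thinned cells with the transcript) and in 0.308% to 2.23% of the other classes. Before thinning it was in 2.53% of DN-like and 0.645% of CD4sp-like cells.

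Promoters are shown for Eif5a, Eif4a1 and Eif4e, which were high in ISP-like cells, and for Eif4a2, which was low there. They were chosen to show windows with and without the motif: Eef1e1, Eif3b, Eef1b2, Eif3g and Eif1ax, also called higher in ISP-like over DPre-like cells, have windows that do not hold it. Each sequence is the 250 bases upstream of an annotated start in RefSeq (GRCm38.p6), read 5′ to 3′ on the gene's own strand. Capitals mark CACGTG, the E-box that Myc and related proteins bind, which reads the same on both strands. The windows are chr11:69921387-69921636 (minus strand) for Eif5a, chr11:69672424-69672673 (minus strand) for Eif4a1, chr3:138527018-138527267 (plus strand) for Eif4e and chr16:23107218-23107467 (plus strand) for Eif4a2.
Eif5a: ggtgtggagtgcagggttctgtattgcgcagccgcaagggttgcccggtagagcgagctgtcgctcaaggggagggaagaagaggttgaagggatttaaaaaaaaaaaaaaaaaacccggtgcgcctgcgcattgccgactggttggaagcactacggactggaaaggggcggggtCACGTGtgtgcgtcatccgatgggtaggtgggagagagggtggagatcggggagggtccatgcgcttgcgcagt
Eif4a1: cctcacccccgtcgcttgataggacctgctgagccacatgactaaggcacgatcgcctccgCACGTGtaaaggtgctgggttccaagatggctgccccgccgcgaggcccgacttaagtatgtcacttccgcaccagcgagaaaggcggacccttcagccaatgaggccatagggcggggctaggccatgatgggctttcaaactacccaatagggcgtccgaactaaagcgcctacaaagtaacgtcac
Eif4e: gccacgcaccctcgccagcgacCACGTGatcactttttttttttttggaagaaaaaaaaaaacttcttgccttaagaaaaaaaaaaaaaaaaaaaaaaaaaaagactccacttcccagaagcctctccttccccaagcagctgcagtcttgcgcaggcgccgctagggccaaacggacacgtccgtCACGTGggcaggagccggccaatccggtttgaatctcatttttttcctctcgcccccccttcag
Eif4a2: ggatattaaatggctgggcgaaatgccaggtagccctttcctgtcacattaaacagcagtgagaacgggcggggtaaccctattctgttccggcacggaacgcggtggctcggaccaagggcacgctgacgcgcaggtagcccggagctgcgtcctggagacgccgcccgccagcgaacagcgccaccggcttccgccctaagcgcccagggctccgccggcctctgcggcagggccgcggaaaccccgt

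These letters occurred 1 time in the windows of Eif5a and Eif4a1, 2 times in that of Eif4e, and not in that of Eif4a2. Eif5a has 6 annotated windows and Eif4e 2, of which 3 and 1 held the motif. Among the 50 factors with a window, 11 had the motif in at least 1: Eef2, Eef2k, Eif1b, Eif3f, Eif3k, Eif4a1, Eif4e, Eif4g1, Eif4h, Eif5a and Eif5a2. It was in 20.3% of the 64 windows of the factors, in 8.77% of the 8769 windows of genes in the RNA table and in 6.02% of all 32851 windows. Whether levels differ with the motif was not tested. In this comparison 20.8% of all genes tested were called higher and 26.5% lower. Of 9 tested factors with it, 4 were called higher and 0 lower, with a median ratio over DPre-like cells of 1.21, and of 26 without it, 9 were called higher and 3 lower, with a median of 1.17.

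Among the elongation factors 2 of 5 were called in ISP-like over DPre-like cells, both higher, 40% against 47.3% of all genes tested. In DPre-like cells the eEF1B subunits Eef1b2 and Eef1g, which recharge eEF1A, were low, and they were high before and after. Eef1b2 had 3.04 steps for DN-like, 2.54 for ISP-like, 1.34 for DPbla-like, 1.13 for DPre-like, 1.80 for DPsel-like, 2.75 for CD4sp-like and 2.76 for CD8sp-like cells. Eef1g had 2.35, 1.88, 0.698, 0.917, 1.44, 2.08 and 2.22 in the same order. By class both formed a trough over the DPbla-like and DPre-like classes, and the intervals of these classes lay below those of all others. By cluster Eef1b2 overlapped, with 1.535 steps in the DPbla-like cluster 2 and 1.39 in the DPsel-like cluster 4. Eef1g did not overlap there, with at most 0.819 steps in the DPbla-like clusters and 1.08 in cluster 4. Against DPre-like cells, Eef1b2 was 2.25 times higher in ISP-like (2.02 to 2.51) and 1.60 times higher in DPsel-like cells (1.42 to 1.80), and Eef1g 2.05 times (1.81 to 2.32) and 1.57 times (1.38 to 1.79). Within the DPsel-like class, cluster 3, led by Itm2a, Cd40lg and Il7r, had 2.20 steps of Eef1b2 and 1.78 of Eef1g, and cluster 4, led by Ikzf2, Arap2 and Cd5, had 1.39 and 1.08. Eef1d, another exchange subunit, ran in the same direction within narrower bounds, from 0.469 steps in DPre-like to 0.832 in CD8sp-like cells.

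Eef1a1, which carries aminoacyl-tRNA and is among the most abundant mRNAs of the cell, stood at 8.42, 7.24, 5.95, 7.69, 8.80, 10.7 and 10.2 steps from DN-like to CD8sp-like cells. Its level is a lower bound, since in 90.9% of cells it lay past the part of the scale where each step holds at least 3 genes. The rank of Eef1a1 in its cell needs no such scale: its median was 4 in ISP-like, 5 in DN-like, 6 in both SP classes, 9 in DPre-like and DPsel-like and 15 in DPbla-like cells. By both measures it was lowest in DPbla-like cells, but by rank, and not by steps, it was highest in ISP-like cells. Eef2, the translocase, had 3.11, 2.47, 1.77, 3.09, 2.67, 3.37 and 3.24 steps in the same order, and DPbla-like cells were at 0.572 times the DPre-like level (0.520 to 0.630). Eif1, Eef2, Eef1b2, Eif5a and Eef1g lay past that part of the scale in 29.7%, 13.0%, 8.63%, 8.43% and 4.17% of cells, so their levels are lower bounds in those cells.

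**Figure D5:**
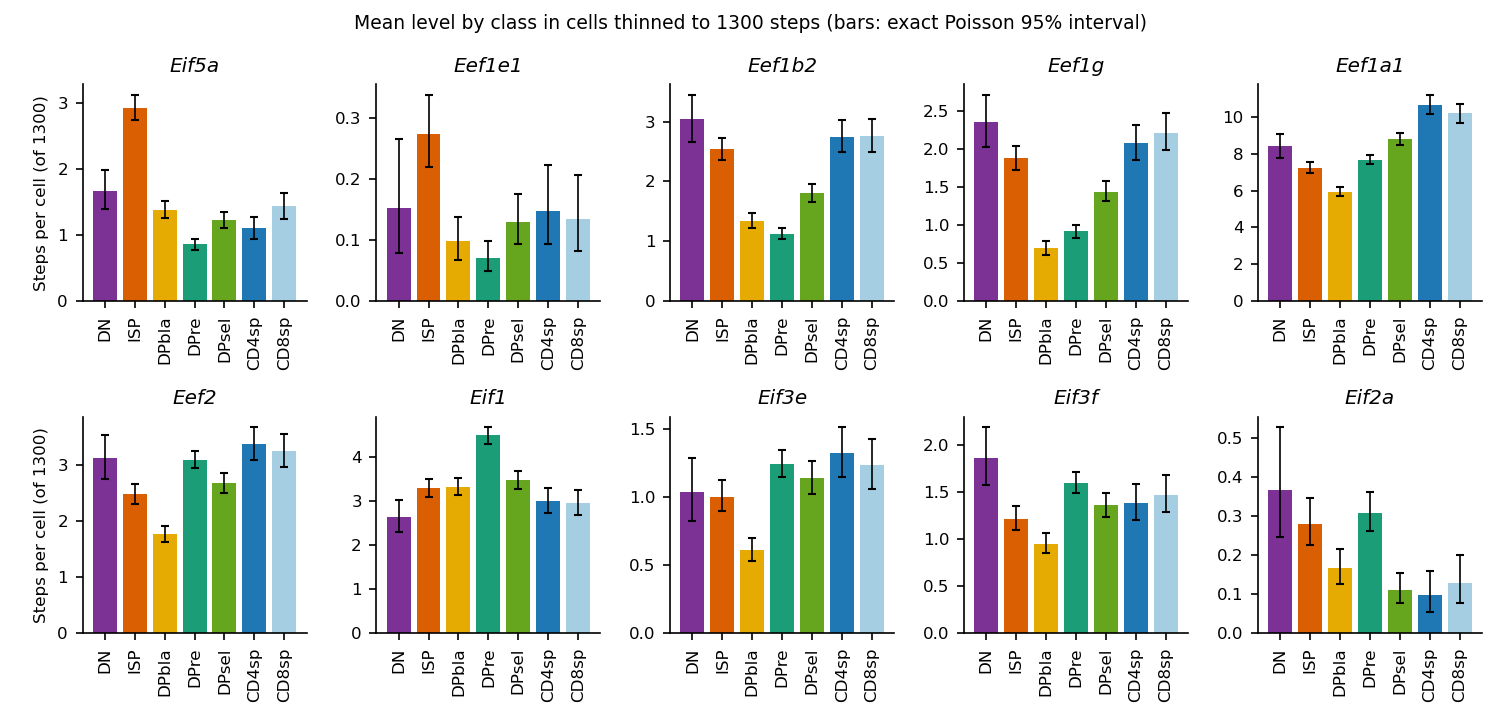
Bars give the mean steps per cell of 1300 for 10 factors in 7 thymocyte classes, with exact Poisson 95% intervals. Eif5a and Eef1e1 peak in ISP-like cells, Eef1b2 and Eef1g are low in DPbla-like and DPre-like cells, Eif1 peaks in DPre-like cells, and Eif2a is low from the DPsel-like class onwards.

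Among the regulators and relatives of the elongation factors 3 of 6 were tested. Eef1e1, a scaffold protein of the multi-tRNA synthetase complex, had the highest ratio of any factor, 3.87 (2.59 to 5.91) in ISP-like over DPre-like cells, at 0.274 and 0.0707 steps. Eef1e1 was again 1.83 times higher in DPsel-like than in DPre-like cells (1.14 to 2.95), but the clusters overlapped. The DPre-like cluster 8, at 0.136 steps, lay between the DPsel-like clusters 3 (0.144) and 4 (0.114). The DPre-like clusters 0 and 1 were at 0.0707 and 0.0279. Eef1akmt1, a methyltransferase for eEF1A, was at 0.194 steps in CD4sp-like and 0.102 in DPsel-like cells. Eef2k, the kinase that stops eEF2, was too sparse to test, but it was found in 13.9% of thinned DN-like cells (7.16% to 23.6%) and in 1.94% to 5.37% of the other 6 classes. Before thinning these shares were 36.7% in DN-like and 21.0% in ISP-like cells.

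Of the 44 factors 17 were called in DN-like cells, the earliest stage, over ISP-like cells, 38.6% against 46.7% of all genes tested, and 10 were called without thinning. The intervals of 4 of them held 1: Eif3b, Eef1akmt1, Eef1e1 and Eif3d. On the low side were Eif4e2 at 0.369 (0.164 to 0.729), Eif4e at 0.446 (0.223 to 0.811), Eif1ax at 0.448 (0.254 to 0.741), Eif5a at 0.572 (0.472 to 0.687) and 9 more at 0.497 to 0.662. On the high side were Eif2s3y at 2.98 (1.68 to 5.22), Eif4e3 at 2.48 (1.01 to 5.82), Eif4a2 at 2.07 (1.24 to 3.38) and Eif3f at 1.53. Eif4e3 rested on 10 steps in the DN-like class and turned to 0.909 with another random thinning.

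Across selection the 7 calls in DPsel-like over DPre-like cells were Eif2a, Eif4a1, Eef1b2, Eef1g and Eef1e1, given above, with Eif4ebp2 at 0.654 (0.468 to 0.904) and Eif3a at 0.661 (0.501 to 0.866). These 7 were 15.9% of the factors against 24.8% of all genes tested, and 3 were called without thinning. Of the 4 called in CD8sp-like over CD4sp-like cells, 9.09% of the factors against 18.8% of all genes tested, Eif4g2 is given above, Eif4g1 was at 1.78 (0.943 to 3.44), Eef1akmt1 at 0.659 (0.350 to 1.21) and Eif3b at 0.662 (0.313 to 1.35). The intervals of the last 3 held 1, and Eef1akmt1 and Eif3b changed direction with another random thinning, under which 2 factors were called, as without thinning. Between DPsel-like and CD4sp-like cells the calls were Eef1b2 at 1.52, Eif4a2 at 1.71 and Eef1akmt1 at 1.91 on the high side, and Eif4e3 at 0.481, Eif1ad at 0.576 (0.294 to 1.06, which holds 1) and Eif4h at 0.651 on the low side. The elongation factors Eef1b2, Eef1d, Eef1g and Eef2 had ratios of 1.26 to 1.52 there, and Eef1a1, with steps that are a lower bound, was above 1 too. The median over all genes tested was 0.935.

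Of 9 factors known to carry a terminal oligopyrimidine (TOP) motif, through which mTOR controls translation, 4 were called lower in DPbla-like over DPre-like cells (Eef2, Eif3e, Eif3f and Eif4b) and 0 higher, against 22.8% lower and 14.4% higher among all genes tested, with medians of 0.708 and 0.901. In ISP-like over DPre-like cells Eef1b2 and Eef1g were called, both higher, against 47.3% of all genes. No median is given there, since it would be the ratio of Eef1a1, whose steps are a lower bound. Other genes of the pathway followed in part. Of the termination and recycling factors 4 were tested, and Etf1 (1.75), Gspt1 (2.19) and Denr (1.89) were higher in ISP-like over DPre-like cells. Etf1 and Gspt1 release the finished chain, and Denr helps to recycle the ribosome. Of 20 aminoacyl-tRNA synthetases only Dars, Qars and Sars were found in enough cells. Qars (0.579) and Sars (0.650) were called lower in ISP-like cells. Paip2, an inhibitor of the poly(A) binding protein, was at 0.606 in ISP-like over DPre-like cells, and Pabpc1, that protein itself, had 1.42 steps in the ISP-like class against 1.09 in the DPre-like class and was not called. None of the hypusine and diphthamide enzymes or the mitochondrial translation factors was found in enough cells to test.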

How the data were processed

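The authors aligned the droplet scRNA-seq reads with Cell Ranger 1.3.1 to GRCm38.p5, removed ribosomal RNA, mitochondrial RNA, pseudogenes, sparse genes and poor cells, and deposited log2 values after quantile normalization. Here 79.72% of the values are 0. Molecule counts were not used here, so depth was judged from detected genes and from the steps described below. The methods also state a limit of 4500 detected genes; 7 cells above it are in the table and were kept, and leaving them out would give 1986. Doublets were not called, and leaving out the deepest 5% of cells was one alternative. The scATAC-seq table was not used here.

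The distinct values of a cell were ranked from 1 (its steps, 1356 to 22539 per cell, median 2558), and each cell was thinned once to 1300 steps. A step is a lower bound on molecules for the most abundant genes. Clusters came from Seurat 5.3.0 (R 4.3.3), run on 1302 variable genes, without the 63 factors, with 20 principal components, 30 neighbours and resolution 2. Each cluster took the class whose markers had the highest mean score, with 1 exception. Cluster 13, led by Tnfrsf9 and Tnfrsf4, was left unnamed for these genes, although it scored highest for CD4sp (0.379 against 0.362 for DPsel). The score was decided on with the clusters already in view, and the classes may differ from those of the study. Ratios, exact Poisson intervals for levels, exact binomial intervals for shares and conditional binomial intervals for ratios (all 95%) were computed with Python 3.11.15, numpy 2.4.6, scipy 1.17.1 and pandas 2.3.3, and the code was tested on simulated data. Steps are not independent molecules, so intervals cover counting error only. The floor for a count of 0 was 3 cells.

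Genes named were those found in at least 50% of thinned cells, the 3 highest and 3 lowest ratios of each comparison, the eIF2 kinases, the eIF4E binding proteins and close copies; other factors are named to complete a group. The factors and gene lists were chosen with earlier results of these data known. Promoter sequences came from RefSeq (GRCm38.p6), where 50 of the 63 factors matched. Alternatives covered thinning, depth, filter, fold, resolution and genes left out.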

Additional observations from a re-analysis of the deposited data

How the results depend on the processing

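The DPbla-like over DPre-like level of all factors stayed below 1 in every alternative run: 0.825 without thinning, 0.737 in cells with 1000 to 2000 detected genes, 0.824 at resolution 1, 0.886 with cycling clusters split by Myc and 0.864 without Eef1a1, Eif1 and Eef2. For ISP-like over DPre-like cells these last 2 settings gave 1.13 and 1.29, cells with 1000 to 2000 genes gave 1.05, and leaving out Eef1a1 gave 1.15. DPsel-like over DPre-like cells gave 0.979 without Eef1a1 and 1.04 without the 3 genes, and DN-like over ISP-like cells 0.951 and 0.941.

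The number of factors called depended on the filter and the fold. With no filter it was 31 of 63 in ISP-like over DPre-like (55.1% of all genes), 26 of 63 in DPbla-like over DPre-like (48.8%), 20 of 63 in DPsel-like over DPre-like (41.0%), 13 of 62 in CD4sp-like over DPsel-like (40.3%) and 12 of 62 in CD8sp-like over CD4sp-like cells (40.0%). At 2-fold these became 9, 4, 1, 1 and 0 of 44, against 24.1%, 16.3%, 9.74%, 7.77% and 4.11% of all genes, and DN-like over ISP-like cells gave 7, against 22.0%. Without thinning, 3 of 44 were called in DPsel-like over DPre-like (23.1% of all genes), 2 in CD8sp-like over CD4sp-like (9.29%) and 10 in DN-like over ISP-like cells (39.1%). Cells with 1000 to 2000 genes gave 13 in ISP-like over DPre-like (47.4%), and a 5% filter gave 11 of 51 in DPsel-like over DPre-like cells (29.4%). CD8sp-like over CD4sp-like cells gave 2 with the factors kept in the clustering (19.4%), 2 with another random thinning (16.2%), and 1 with the unnamed cluster counted as CD4sp-like (15.3%).

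Of 476 ratios recomputed over 60 pairs of a gene and a comparison, 27 lay outside the interval of the main value, and 471 kept their side of 1. The 5 that did not were Eif3b in CD8sp-like over CD4sp-like cells (1.17 without thinning, 1.24 with another thinning), Eef1akmt1 there (1.14 with another thinning), Eif4e3 in DN-like over ISP-like cells (0.909 with another thinning) and Eif3g there (1.01 in cells with 1000 to 2000 genes). Beyond what each setting changes by construction, the cause was not tested. The split by Myc, the unnamed cluster as CD4sp-like and the removal of 3 genes were chosen after seeing the data. At resolution 1 no cluster was CD8sp-like, so that comparison has no value there. No paired analysis was possible because there is 1 library with no replicate number. The 19 factors under the filter were given no call, and their shares rest on few cells.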
